A study of Mus musculus with 11 samples.

Results

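The 54 genes described here encode proteins of the synaptic vesicle and of the machinery that docks, primes, fuses and retrieves it. They were chosen by symbol, with earlier results on these mice known, from the 36666 genes of a count table of cerebral RNA. All 54 were expressed above the filter on low counts, among 17983 genes that were tested. The 11 mice were males of strain C57/Bl6, aged 1 year. The mutator group held 7 mice that carried the D257A mutation of Polg on both alleles, and the control group held 4 of their littermates, 3 with the genotype WT/WT and a single heterozygote, WT/D257A. Polg encodes the polymerase of mitochondrial DNA, and D257A impairs its proofreading. The mutation is carried in the germline, so all cells hold it. It changes an amino acid of the protein rather than removing the gene, so the count of Polg does not check the genotype. Exon counts were used for 10 mice, since the heterozygote had no exon file among those used here. Each mouse gave 1 library, and mice are named by the numbers of their labels: 205, 239 and 246 were WT/WT, 237 was WT/D257A, and 207, 211, 217, 236, 240, 248 and 249 were mutators.

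A nerve terminal stores transmitter in vesicles that are filled by transporters and held in clusters by synapsins. At the active zone, scaffolds such as Bassoon and RIM and the priming factor Munc13 bring vesicles to the membrane, where the SNARE proteins synaptobrevin, syntaxin and SNAP-25 pull the membranes together and a synaptotagmin triggers fusion when calcium enters. NSF and the SNAPs then take the SNARE complex apart, and dynamin, amphiphysin, endophilin and synaptojanin retrieve the membrane for another round. Most of these proteins are made by all neurons, while the vesicular glutamate transporters divide excitatory neurons by region: Slc17a7 (VGLUT1) marks mainly cortex and hippocampus, Slc17a6 (VGLUT2) marks mainly thalamus, hypothalamus and brainstem, and Slc17a8 (VGLUT3) a small set of neurons that often release another transmitter as well.

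Gene counts came to between 28249345 and 121182250 per mouse, and the log2 levels of each library correlated with the mean of the others at r = 0.992 to 0.997 across genes. In bulk tissue, fewer cells of a type and less RNA per cell cannot be told apart. The 9 neuronal markers detected had a mean log2 CPM (gene counts scaled to a common library size) of 8.38 ± 0.067 in controls (SD, n = 4) and 8.33 ± 0.068 in mutators (SD, n = 7), and the 6 markers of cerebral cortex had 5.94 ± 0.059 and 5.89 ± 0.064. Neither list differed beyond the spread between mice (exact permutation tests, two-sided, adjusted p = 0.497 and 0.473 over 13 marker lists), and markers of both kinds were present in all 11 libraries. Libraries were run in pools that the labels do not assign to mice, so pools were not compared.

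The differences between mutators and controls were small for nearly all 54 genes. The log2 fold change, mutator over control, had a median of -0.024 over the 54 genes and of 0.0014 over all genes tested, and it lay within 0.1 of zero for 31 of the 54. The fold change was below zero for 33 members and above zero for 21, against 49.6% of all genes below zero. An adjusted p-value under 0.05 in the edgeR fit, the call used throughout, was reached by 2 of the 54, both lower in mutators. Of all genes tested 1.24% were called, 0.439% as higher and 0.801% as lower. No member had groups that did not overlap, against 2.62% of all genes tested. Since the genes were chosen with this comparison known, their fold changes are given as a description, without p-values.

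**Figure D1:**
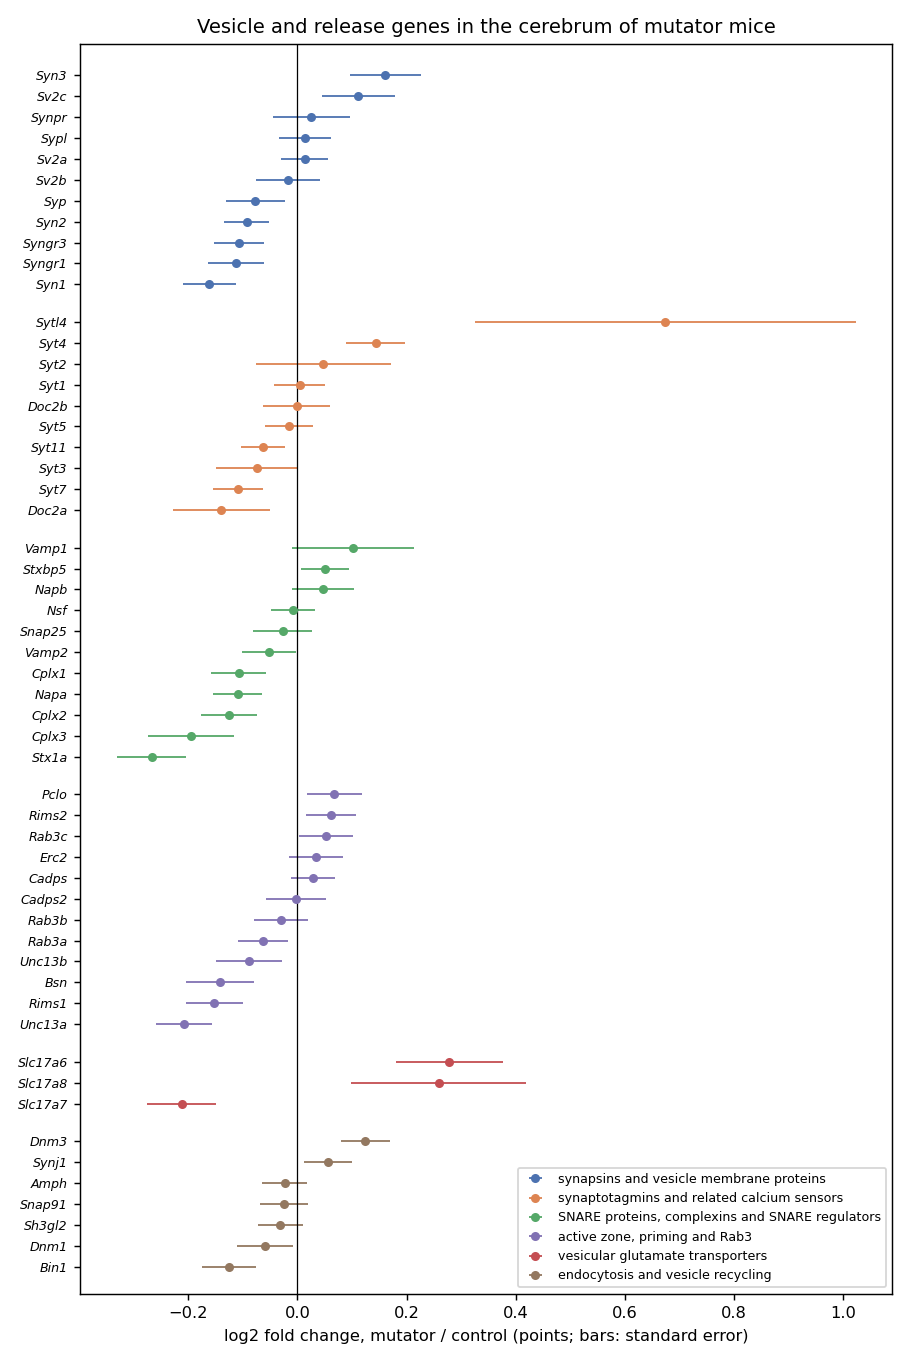
Log2 fold change of each of the 54 genes, mutator over control (x axis, points with bars of 1 standard error, 7 mutator and 4 control mice), grouped and coloured by the role of the protein. The values run from -0.27 for Stx1a to 0.67 for Sytl4, whose bar is the longest, and 31 of the 54 points lie within 0.1 of zero.

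The median log2 fold change of the 11 genes for synapsins and vesicle membrane proteins was -0.017. Of these, 5 were above zero and 6 below, and 0 were called. On a scale per length (RPKM, the CPM divided by the exon length in kilobases), Syp, the abundant membrane protein synaptophysin, had the highest level of the role, at 147 ± 10.9 in controls and 139 ± 8.48 in mutators. Its CPM was 696, 803, 739 and 816 in control mice 205, 237, 239 and 246, and had a lowest value of 663, a median of 730.5 and a highest of 778 in mutators. Most mutators thus lay within the range of the controls, and the log2 fold change was -0.077 ± 0.054 (SE).

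Synapsins coat vesicles and tether them to each other and to the cytoskeleton, and 0 of their 3 genes were called. Syn1 had 459.8, 478, 453 and 464 CPM in controls 205, 237, 239 and 246, and between 383 and 456 CPM in mutators, with a median of 408. Of the mutators only mouse 249 exceeded a control, mouse 239. For Syn1 the log2 fold change was -0.16 ± 0.049. Syn3, whose level per length was far below that of Syn1 (1.41 ± 0.074 against 141 ± 3.12 RPKM in controls), had 17.7, 16.4, 18.4 and 16.9 CPM in the same controls, and a lowest, median and highest value of 18.0, 19.1 and 22.4 CPM in mutators. Only control 239 reached into the range of the mutators, and the log2 fold change of Syn3 was 0.16 ± 0.065. Syn2 lay between them at -0.093 ± 0.041. Among the other membrane proteins, Syngr1 and Syngr3 (synaptogyrins) had -0.11 ± 0.052 and -0.11 ± 0.046, Sv2c had 0.11 ± 0.067, and Sypl, Synpr, Sv2a and Sv2b stayed between -0.017 and 0.026.

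The 10 genes for synaptotagmins and related calcium sensors had a median of -0.0084, with 4 above zero, 6 below and 0 called. Syt1, the fast calcium sensor of forebrain neurons, was the most abundant of them per length, at 197 ± 4.82 RPKM in controls and 197 ± 10.1 in mutators. Its CPM was 1650.4, 1582, 1665 and 1668 in controls 205, 237, 239 and 246 and ran from 1491 to 1734 in mutators, with a median of 1665. The 2 groups covered the same range, and the log2 fold change of Syt1 was 0.0043 ± 0.046.

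Sytl4 (granuphilin), which docks secretory granules in endocrine cells, had the largest fold change of the 54 genes and also the largest error, 0.67 ± 0.35 on the log2 scale. Its level was low, with 4.95, 2.67, 4.41 and 1.60 CPM in controls 205, 237, 239 and 246 and with a lowest, median and highest value of 2.91, 6.17 and 7.84 CPM in mutators. The values spread about as widely within each group as between them, and 3 mutators lay within the range of the controls. The lowest count of Sytl4 in a control library was 44. Syt4, a synaptotagmin of neuropeptide vesicles that does not bind calcium in the usual way, had 201, 165, 189.9 and 191 CPM in the controls and 186, 210.3 and 215 as the lowest, median and highest CPM in mutators. The WT/D257A mouse was the lowest of all 11, and the log2 fold change of Syt4 was 0.14 ± 0.053.

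Syt2, the fast sensor of many brainstem and inhibitory terminals, did not separate the groups (0.048 ± 0.12) but spread widely among mutators. It was at 153, 144 and 137 CPM in mutators 217, 207 and 236, between 103 and 108 CPM in the other 4 mutators, and between 112 and 125 CPM in controls. The same 3 mutators were the highest for Vamp1, the synaptobrevin that is most abundant in brainstem and spinal cord, at 360.4, 341 and 322 CPM. They were also the highest mutators for Slc17a8 and Slc17a6, described below. Among the other sensors, Syt7, which acts in slower release, had -0.11 ± 0.045, Doc2a had -0.14 ± 0.089, and Syt3, Syt5, Syt11 and Doc2b ran from -0.074 to -0.0015.

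Of the 11 genes for SNARE proteins, complexins and SNARE regulators, 8 were below zero, with a median of -0.052, and 1 was called. That gene was Stx1a (ENSMUSG00000007207, mm9 chr5:135499352-135526970), the syntaxin of the presynaptic membrane. Stx1a was at 169.9, 211, 182 and 205 CPM in controls 205, 237, 239 and 246. In mutators its lowest value was 142, its median 158 and its highest 184 CPM. Mouse 249 was the only mutator above the lowest control, and the other 6 lay below all 4 controls. This gave a log2 fold change of -0.27 ± 0.063. The call of Stx1a held under 7 of 17 other settings, which did not include the 3 WT/WT controls alone, while the log2 fold change of Stx1a stayed below zero under all 17, from -0.32 to -0.19.

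Snap25, the SNARE protein anchored at the plasma membrane, had the highest level per length of all 54 genes, 325 ± 20.5 RPKM in controls and 319 ± 20.3 in mutators. Its CPM was 2287, 2194, 2014 and 2326 in controls 205, 237, 239 and 246 and had a lowest, median and highest value of 1989, 2194 and 2339.8 in mutators. The groups covered the same range, with a log2 fold change of -0.027 ± 0.054. The vesicle SNARE Vamp2 had -0.052 ± 0.050. Complexins clamp the partly assembled SNARE complex until calcium enters. All 3 complexin genes had lower means in mutators, with log2 fold changes of -0.11 ± 0.051 for Cplx1, -0.13 ± 0.052 for Cplx2 and -0.20 ± 0.078 for Cplx3. Cplx3, which in the forebrain is largely a gene of deep cortical layers, had 11.8, 13.1, 11.6 and 12.9 CPM in the controls and 9.18, 10.8 and 12.4 as the lowest, median and highest CPM in mutators. Only mutator 249 lay within the range of the controls. Of the genes that recycle SNAREs, Napa (alpha-SNAP) had -0.11 ± 0.045, Napb 0.046 ± 0.057 and Nsf -0.0077 ± 0.041, and Stxbp5 (tomosyn) had 0.051 ± 0.045.

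Among the 12 genes for the active zone, priming and Rab3, 7 were below zero, the median was -0.016, and 1 was called. That was Unc13a (ENSMUSG00000034799, mm9 chr8:74150614-74195656), which encodes Munc13-1, the main priming factor of forebrain synapses. Its CPM was 396, 479, 466 and 448 in controls 205, 237, 239 and 246, and 359, 386 and 419.9 as the lowest, median and highest of the mutators. Mutator 249 alone lay above the lowest control, mouse 205. For Unc13a the log2 fold change was -0.21 ± 0.051, and it ranged from -0.26 to -0.16 over 17 other settings. It was called under 4 of the 17, which did not include the 3 WT/WT controls alone.

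Of the scaffold genes Rims1, Bsn, Rims2 and Pclo, 0 were called. Rims1 and Bsn, which encode RIM1 and Bassoon, had -0.15 ± 0.052 and -0.14 ± 0.062, and their relatives Rims2 and Pclo (Piccolo) had 0.062 ± 0.046 and 0.068 ± 0.051. Rims1 was at 236, 255, 237 and 249 CPM in controls 205, 237, 239 and 246 and ran from 201 to 252 CPM in mutators, with a median of 216. Apart from mutator 249, every mutator was below all controls for Rims1. Bsn had 406, 517, 496 and 472 CPM in the controls and ran from 379 to 468 CPM in mutators, with a median of 441. Control 205 lay inside the range of the mutators for Bsn. Rab3a, a small GTPase of the vesicle, had the highest level per length of the role, 211 ± 7.70 RPKM in controls and 202 ± 10.3 in mutators. It had 447, 472, 472 and 489 CPM in the controls and 407, 452 and 484 as the lowest, median and highest CPM in mutators, which overlap. Its log2 fold change was -0.063 ± 0.046. The other genes of the role (Rab3b, Rab3c, Unc13b, Erc2, Cadps and Cadps2) ran from -0.089 to 0.053.

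The 3 vesicular glutamate transporters were all more than 0.2 from zero on the log2 scale, Slc17a7 below and the other two above, and 0 of the 3 were called. Slc17a7 (mm9 chr7:52419291-52431508) had 819.7, 1016, 867 and 971 CPM in controls 205, 237, 239 and 246, and 719, 789 and 877 CPM as the lowest, median and highest of the mutators. Mutators 249, 236 and 207 lay above the lowest control. The log2 fold change of Slc17a7 was -0.21 ± 0.063, and its level per length was 312 ± 30.8 RPKM in controls and 269.8 ± 21.0 in mutators. Slc17a6 (mm9 chr7:58877200-58926495) had 109, 80.3, 119 and 95.9 CPM in the same controls, and 108, 121 and 140.4 CPM as the lowest, median and highest of the mutators. The 4 highest values were those of mutators 217, 236, 207 and 240. For Slc17a6 it was 0.28 ± 0.099. Slc17a8 was at 5.29, 4.81, 4.65 and 3.49 CPM in the controls and ran from 3.85 to 7.00 CPM in mutators, with a median of 4.98. Mutators 236, 217 and 207 were at 7.00, 6.81 and 6.67 CPM and the other 4 at 3.85 to 4.98, within the controls' range, so that its log2 fold change of 0.26 ± 0.16 came from 3 mice.

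The 7 genes for endocytosis and vesicle recycling had a median of -0.025, with 2 above zero and 0 called. Dnm1, the dynamin of nerve terminals that cuts vesicles from the membrane, had the highest level per length of the role, 230.0 ± 10.8 RPKM in controls and 221 ± 13.9 in mutators. It had 1133, 1264, 1192 and 1234 CPM in controls 205, 237, 239 and 246 and 1069, 1156 and 1244 as the lowest, median and highest CPM in mutators. These ranges overlapped, and the log2 fold change of Dnm1 was -0.060 ± 0.051. Dnm3, another dynamin, had 0.12 ± 0.045, and Bin1, an amphiphysin relative that glia and muscle also make, had -0.12 ± 0.049. Snap91 (AP180), Amph, Sh3gl2 (endophilin A1) and Synj1 ran from -0.031 to 0.057.

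**Figure D2:**
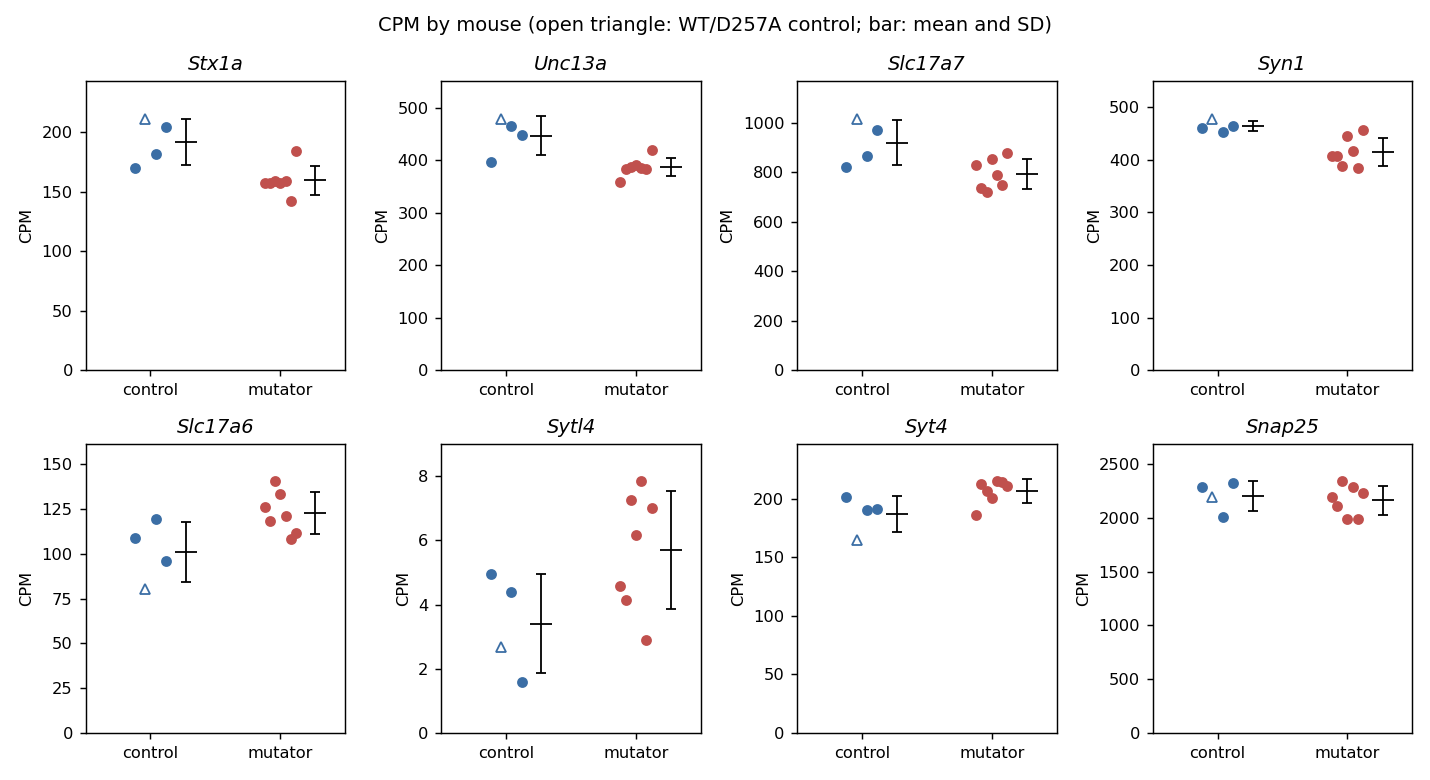
CPM of 8 genes in each mouse (y axis from 0; blue, 4 controls with the WT/D257A mouse as an open triangle; red, 7 mutators; black, mean with SD). Stx1a, Unc13a, Slc17a7 and Syn1 lie lower in most mutators with 1 to 3 of them inside the controls' range, Slc17a6, Sytl4 and Syt4 lie higher in most, and Snap25 covers the same range in both groups.

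Control mouse 237, the WT/D257A animal, was the highest control for Stx1a, Unc13a, Slc17a7, Syn1, Rims1 and Bsn and the lowest for Slc17a6 and Syt4. Of the mutators, mouse 249 was the highest for Stx1a, Unc13a, Slc17a7, Syn1, Rims1, Bsn and Cplx3. Of the 54 genes, 0 were called with the 3 WT/WT mice as the only controls, when 0.273% of all genes were called, and 3 without control 205, when Slc17a7 joined Stx1a and Unc13a and 2.27% of all genes were called. The 23 genes that were at least 0.1 from zero on the log2 scale kept their direction under all 17 other settings. Of all 54 genes, 38 did.

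The base composition of the genes moved with their fold changes. GC content is the share of guanine and cytosine in the annotated exons, and it ran from 39.0% for Sypl to 60.4% for Doc2a. Across the 54 genes, which share libraries and are not independent, the log2 fold change and GC content had a Pearson r of -0.57 and a Spearman rho of -0.71, and across the 17029 genes tested with a GC value an r of -0.24 and a rho of -0.39. Of the 27 members below the median GC content, 18 had a fold change above zero, and of the 27 above it, 3 had. Slc17a6 and Slc17a8 had 43.3% and 44.1% GC, and Slc17a7 had 58.8%. Stx1a and Unc13a had 59.3% and 56.4%.

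The slope of each mouse's log2 level on GC content, over all genes tested, ran from -0.011 in mouse 205 to 0.139 in mouse 237 among controls, per 10 points of GC, and from -0.159 in mouse 248 to 0.052 in mouse 236 among mutators. The groups overlapped. With a smooth GC curve removed from each library, an alternative chosen after seeing the data, 0 of the 54 genes were called and 0.869% of 17029 genes were. Stx1a then had a log2 fold change of -0.19 ± 0.060, Unc13a -0.16 ± 0.052, Slc17a7 -0.14 ± 0.054, Syn1 -0.098 ± 0.047 and Bsn -0.055 ± 0.056. Those of Slc17a6 and Sytl4 were 0.21 ± 0.10 and 0.64 ± 0.35. Cplx3 changed little, at -0.19 ± 0.080. Other members had a lower value with the correction than without it: Rims1 -0.17 ± 0.058, Syp -0.088 ± 0.056, Snap25 -0.12 ± 0.070 and Syt1 -0.070 ± 0.047. The members split into 38 below and 16 above zero in this fit, with a median of -0.054 against -0.013 for all genes. Whether the GC content or the expression of the genes sets the pattern was otherwise not tested.

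**Figure D3:**
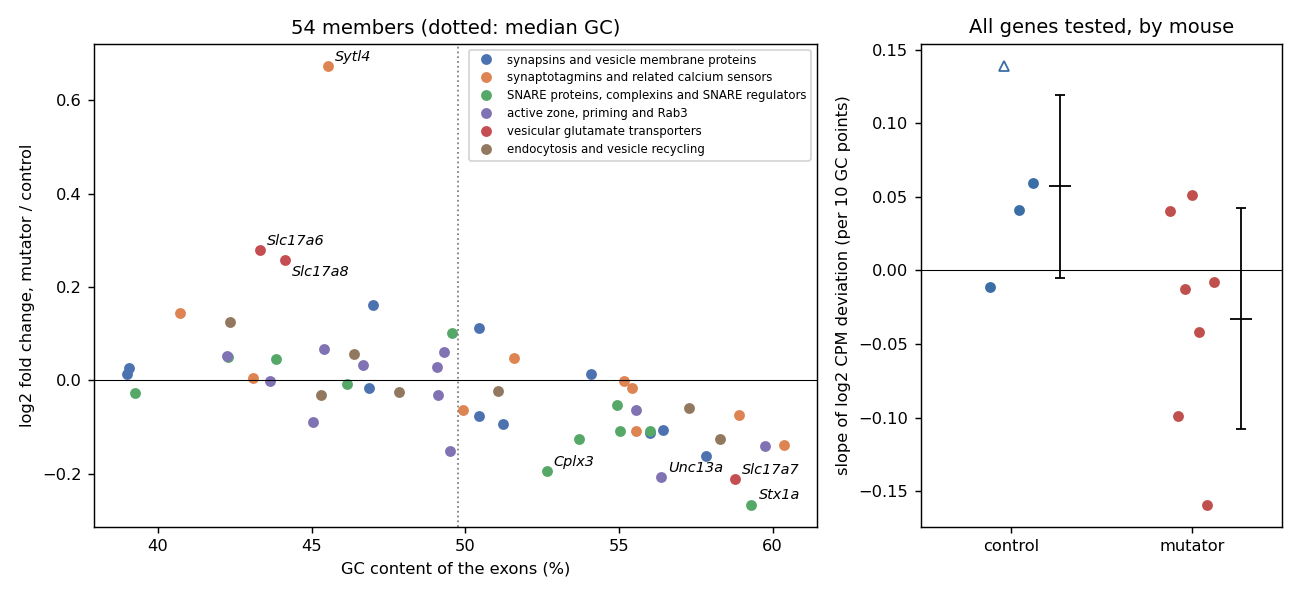
Left, log2 fold change of the 54 genes, mutator over control (y axis), against the GC content of their exons in % (x axis), coloured by role, with a dotted line at the median GC content of 49.8%. Right, slope of log2 CPM on GC content over all genes for each mouse (blue, controls, open triangle WT/D257A; red, mutators; black, mean with SD): the highest slope is 0.139 in control 237 and the lowest -0.159 in mutator 248.

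Markers of regions and cell types were compared between the groups because several members are specific to a region. Of 13 lists, 2 differed at an adjusted p under 0.05 (exact permutation tests of the mean log2 CPM, two-sided). The mean log2 CPM of 5 hypothalamic peptide genes (Hcrt, Pmch, Avp, Oxt and Trh) was higher in mutators, with 3.48 ± 0.31 against 2.48 ± 0.77 in controls (adjusted p = 0.0394), and all 5 were detected. None of the 5 passed by itself in the edgeR fit (lowest adjusted p 0.0799, for Pmch). All 5 had log2 fold changes above zero but of unequal size. Hcrt was at 0.11 ± 0.20, while Avp and Oxt were at 1.39 ± 0.33 and 1.60 ± 0.64. Oxt had only 9 counts in control 246. Their summed level was 18.8 to 45.2 CPM in controls and 44.8 to 88.7 CPM in mutators. The 6 platelet markers had -0.14 ± 0.41 against -1.38 ± 0.16 (adjusted p = 0.0394), with summed levels of 8.26 to 10.9 and 8.19 to 13.2 CPM, which overlapped. This list holds Ppbp and Tubb1, which the study had already reported as higher in these mutators, so its p is no independent test. All 13 lists were chosen with earlier results of these data known, which limits the hypothalamic p as well. Control libraries held at most 5 counts of Ppbp and 1 of Tubb1. Gp1bb, the most abundant platelet marker, was lower in mutators (log2 fold change -0.37 ± 0.13), and the others were higher. With summed CPM in place of the mean log2 level, 0 of the lists were called, and the hypothalamic list had an adjusted p of 0.0591. Lists for thalamus, striatum, hippocampus, cortical layer 6b, interneurons, oligodendrocytes, astrocytes, microglia and endothelium had adjusted p-values from 0.131 to 0.748 and differences from -0.15 to 0.25. Single markers of these lists were called in the edgeR fit, where 1.24% of all genes were. Adora2a of striatum was lower (-0.35 ± 0.079, edgeR adjusted p = 0.0376). Vwf of endothelium, already reported by the study, was higher (1.27 ± 0.25, edgeR adjusted p = 0.0472).

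Across the 11 mice, 7 planned pairs of a member and a marker list of a region or cell type were compared. None was related at an adjusted p under 0.05 (permutation tests, smallest adjusted p = 0.23, smallest unadjusted p = 0.065). Slc17a6 and Syt2 had r = -0.57 and r = -0.57 with the thalamic markers (rho = -0.55 and -0.37), and without the 2 mice farthest from the median these became -0.24 and -0.44. Slc17a7 had r = 0.51 with the cortical markers (rho = 0.44), which was -0.0099 without the 2 mice farthest from the median. Sv2c with striatum, Synpr with hippocampus, Cplx3 with layer 6b and Sytl4 with endothelium had r between -0.28 and 0.060.

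After the difference in hypothalamic markers had been seen, 3 members were set beside them. These relations were chosen for that difference and pool groups that differ in the markers, so they are given as a description. Sytl4 had r = 0.92 and rho = 0.82 with the hypothalamic markers over the 11 mice. Without mice 240 and 246, farthest from the median, r was 0.80, and within the 7 mutators it was 0.85. Slc17a6 had r = 0.71 and rho = 0.72, with r of 0.85 without those 2 mice and 0.30 within the mutators. Syt4 had r = 0.58 and rho = 0.67. The hypothalamic level was lowest in controls 246 and 237, at 1.42 and 2.42, and highest in mutator 240, at 3.98, which was also the mouse with the most Sytl4. The part of these markers in the fold changes of Sytl4, Slc17a6 and Syt4 was not tested.

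**Figure D4:**
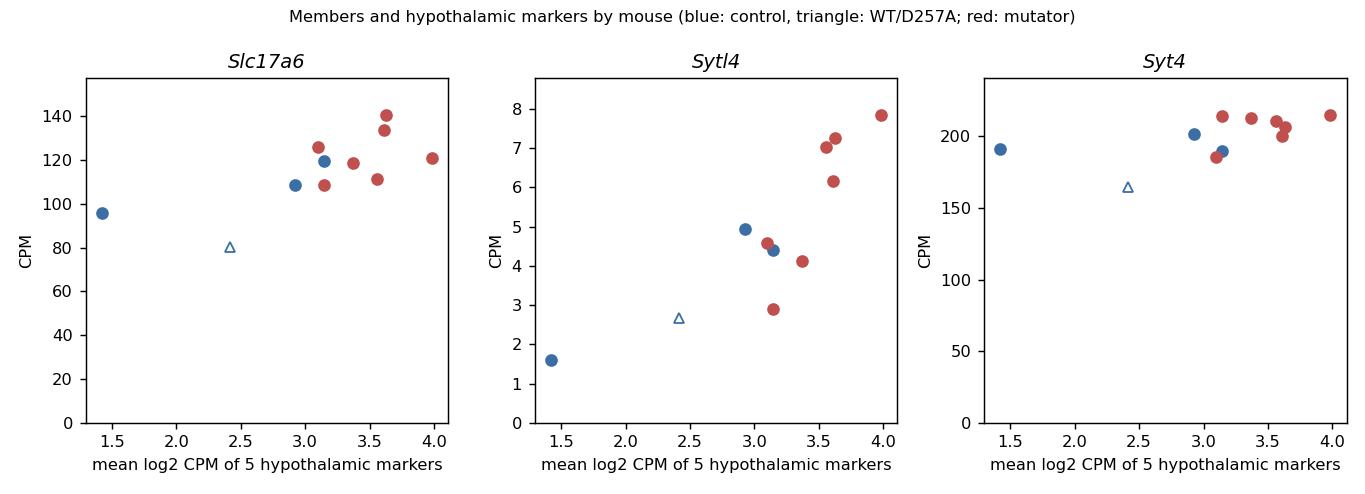
CPM of Slc17a6, Sytl4 and Syt4 (y axes from 0) against the mean log2 CPM of 5 hypothalamic peptide genes (x axis) in each mouse (blue, controls, open triangle WT/D257A; red, mutators). Over all 11 mice r was 0.92 for Sytl4, 0.71 for Slc17a6 and 0.58 for Syt4, and the controls lie mostly to the left of the mutators.

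The genes whose log2 levels followed a region-specific member most closely over the 11 mice were looked up among all genes tested, and are given as a description. For Slc17a6 these were Hs6st2 (r = 0.96), Rit2, Gpr165, Scg2 and Cd83 (r = 0.94). For Sv2c they were Pcdh19 (r = 0.93), Dync2h1, 9330154J02Rik, Vps13d and Cybrd1 (r = 0.91), and for Cplx3 St6galnac2 (r = 0.90), Vps25, Myl4, AC160935.1 and Galnt14 (r = 0.87).

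The wider pathway was read from 119 other vesicle and release genes, of which 118 were in the count table and 113 passed the filter. Of these 113, 1 was called in the edgeR fit, as lower. An unadjusted p under 0.05 was found for 23, of which 9 were higher and 14 lower, against 15.8% of all genes tested, 7.18% higher and 8.58% lower. The median log2 fold change of the 113 was -0.016. The gene called was Lin7b, which encodes a PDZ protein of the complex with Cask and Mint that stands near the presynaptic and postsynaptic membrane. It was at 33.3, 40.3, 36.0 and 36.2 CPM in controls 205, 237, 239 and 246, and its lowest, median and highest values in mutators were 26.6, 28.1 and 31.0 CPM. Every mutator lay below every control, as for 1.42% of all genes tested, while 1.2% had every mutator above. Lin7b had -0.35 ± 0.057 on the log2 scale (edgeR quasi-likelihood test, Benjamini-Hochberg adjusted p = 0.00329), and it was called under all 17 other settings, with the GC correction at -0.29 ± 0.052.

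The 4 genes next in order of p were not called. On the log2 scale Rph3a, a Rab3 effector, had -0.20 ± 0.055 (adjusted p of edgeR = 0.0788), Ppfia3, a liprin of the active zone, -0.19 ± 0.055 (0.0962), Scamp4 -0.17 ± 0.052 (0.104) and Bin2, which microglia make, -0.45 ± 0.14 (0.127). The relatives Lin7a and Lin7c were not called. By role, 0 of 18 other transporters and membrane proteins, 0 of 15 other synaptotagmins and sensors, 0 of 18 other SNARE genes, 1 of 23 other active zone genes, 0 of 23 other endocytosis genes and 0 of 16 subunits of the vacuolar ATPase, the proton pump that powers vesicle filling, were called. Of these roles, unadjusted p-values under 0.05 were found for 5, 6, 1, 5, 4 and 2 genes.

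Exon usage within the 54 genes was not used to choose them, though it comes from the same libraries as the gene counts. Each gene was divided into exon bins, the stretches between annotated exon boundaries, and the usage of a bin is its count compared with that of the rest of the gene. Of 1080 bins of the 54 genes that passed the filter, 0 were called (limma, 3 WT/WT controls against 7 mutators), against 0.0121% of 206930 bins in all. An unadjusted p under 0.05 was reached by 30 of the 1080 bins, 22 of them used less in mutators, and by 2.66% of all bins, 61.3% of these used less. The counts rest in part on control 239, without which 16 member bins reached it, 6 of them used less, and 50.5% of such bins over all genes were used less. With edgeR's diffSpliceDGE 0 bins were called and 27 had an unadjusted p under 0.05. By gene, the Simes test over its bins gave an unadjusted p under 0.05 for 5 of 54 members, Syn2, Cadps, Dnm1, Rab3a and Syn1, against 3.76% of genes, and an adjusted p under 0.05 for 0 of 54, against 0.0581%.

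The lowest adjusted p of a member bin was 0.186 (limma), for the first bin of Syn2, which holds the start codon and the first coding stretch. This bin had 3.97%, 4.96% and 4.03% of the gene's bin counts in controls 205, 239 and 246 and between 3.17% and 4.29% in mutators, with a log2 change in usage of -0.23 ± 0.055. The value of control 239 was the highest, and the other 2 controls lay inside the range of the mutators. The corresponding first coding bin of Syn1, bin 17, had a change of -0.24 ± 0.080 (limma adjusted p = 1.00), with 4.34%, 6.04% and 4.41% in the controls and 3.47% to 4.77% in mutators. In Dnm1, a coding bin of 15 bases (bin 18) had a change of -0.60 ± 0.18 (limma adjusted p = 0.651) and counts between 64 and 288. In Cadps, bin 17, a coding exon of 69 bases that 1 of 3 annotated transcripts holds, had a change of 0.32 ± 0.096 (limma adjusted p = 0.673), from 0.396% to 0.491% in controls and 0.459% to 0.704% in mutators. Without control 205, 5 bins were called (Syn2 bin 1, Dnm1 bins 18 and 19, Rab3a bin 3 and Cadps bin 14), and without mutator 207, 2 were (Syn2 bin 1 and Cadps bin 14). Over all genes, 0.134% of 209437 bins and 0.0435% of 204497 bins were then called.

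A stretch of Syn2 bin 1, Syn1 bin 17, Dnm1 bin 18 and Cadps bin 17 is shown with its G and C in capitals. The stretches were read from the mm9 genome 5′ to 3′ on the strand of each gene, and the synapsin stretches begin at the start codon. They are Syn2 bin 1 at chr6:115085099-115085128 (+), Syn1 bin 17 at chrX:20497886-20497915 (-), Dnm1 bin 18 at chr2:32167747-32167761 (-) and Cadps bin 17 at chr14:13319078-13319107 (-).
Syn2 bin 1: atGatGaaCttCCtGaGGCGCCGGCtGtCG
Syn1 bin 17: atGaaCtaCCtGCGGCGCCGCCtGtCGGaC
Dnm1 bin 18: CCGCCCtGGGGGGGG
Cadps bin 17: GGaaaaaGaGaGaaatGtatGaGCatCCtG
The first 3, used less in mutators at an unadjusted p under 0.05, hold 18, 20 and 14 G or C in 30, 30 and 15 bases, and the Cadps stretch, used more, holds 12 in 30. Over the 901 member bins with a GC value, the log2 change in usage had an r of -0.34 with GC content. The 19 bins used less at an unadjusted p under 0.05 had a median GC content of 70.8%, the 6 used more had 39.4%, and all member bins had 52.9%. The bins counted here were picked by their p-values, and the stretches shown do not follow the order of p. Cadps bin 14, with 55.6% GC and used less, had a lower limma p than bin 17 and is not shown. Rab3a bin 3 and Dnm1 bins 19, 53 and 54 had a lower limma p than Syn1 bin 17 and are not shown either. They were used less, with 53.8%, 70.8%, 100% and 55.6% GC, and Dnm1 bin 53 is 1 base long. The part of GC content in the usage of bins was not tested.

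Snap25 and Dnm1 each hold a pair of exons of equal length of which a transcript keeps only 1. In Snap25 the pair gives the isoforms SNAP-25a, from the upstream exon, and SNAP-25b, the main form of the adult brain. In both genes the pair is 2 diverged copies of 1 exon: they differ at 31 of 118 bases in Snap25 (identity 73.7%) and at 39 of 139 in Dnm1 (identity 71.9%). The first 30 bases of each are shown so that the likeness within a pair can be seen, with the bases that differ between its exons in capitals, 8 in each gene. They are Snap25 bins 8 and 9 at mm9 chr2:136595479-136595508 and chr2:136595793-136595822 (+), and Dnm1 bins 37 and 36 at chr2:32190311-32190340 and chr2:32188695-32188724 (-).
Snap25 upstream exon: aacaactCgaTcgTGtCgaAgaaggCatgA
Snap25 downstream exon: aacaactGgaAcgCAtTgaGgaaggGatgG
Dnm1 upstream exon: AacgggGctcttTacCccAgacAtGgcCtt
Dnm1 downstream exon: GacgggCctcttCacAccTgacCtCgcTtt

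The upstream exon of Snap25 took 11.1%, 10.1% and 9.41% of the counts of its pair in controls 205, 239 and 246, and 9.31% to 14.1% in mutators. Its mean was 10.2% ± 0.87 (SD, n = 3) against 11.3% ± 1.56 (SD, n = 7), a difference within the spread (exact permutation test, two-sided, p = 0.292, adjusted over 4 pairs 0.583). The upstream exon of Dnm1 took 29.9%, 29.5% and 29.9% in the controls and between 30.2% and 37.9% in mutators. All 7 mutators lay above all 3 controls, mouse 207 highest, with means of 29.8% ± 0.27 (SD, n = 3) and 33.3% ± 2.46 (SD, n = 7). The difference of 3.48 points had an exact permutation p of 0.0417, which did not pass the correction over the 4 pairs (adjusted p = 0.167), and the smallest p that 3 against 7 mice allow is 0.00833. The exons of each pair have similar GC content, 39.8% and 43.2% in Snap25 and 48.9% and 49.6% in Dnm1. Pairs in Syn3 and Erc2 had 96.1% and 99.3% of counts in 1 exon in controls and differed by 0.25 and 0.27 points (exact permutation adjusted p = 0.892 and 0.722).

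**Figure D5:**
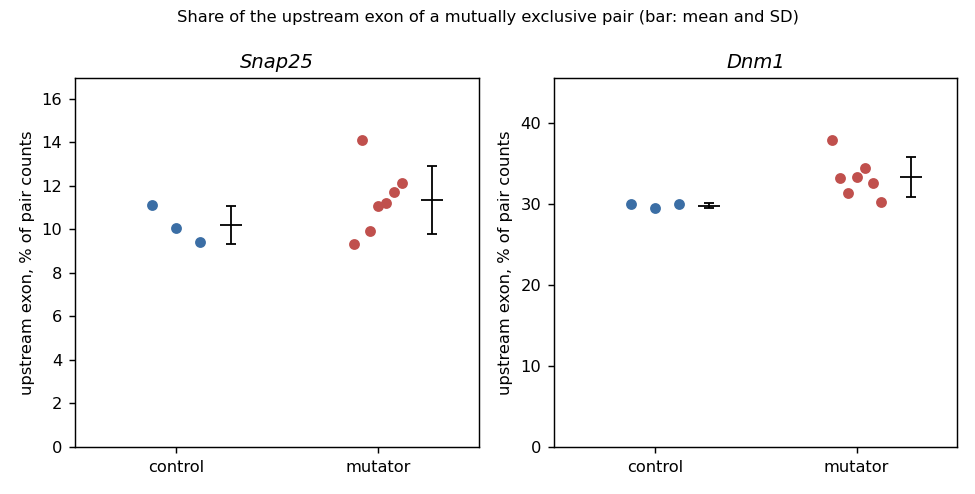
Share of the upstream exon in the counts of a mutually exclusive pair, in % (y axes from 0), in each of 3 WT/WT controls (blue) and 7 mutators (red), with mean and SD in black. The shares of Snap25 overlap between the groups, and those of Dnm1 are 29.5% to 29.9% in controls and 30.2% to 37.9% in mutators.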

How the data were processed

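Cerebral poly(A)+ RNA was sequenced as paired ends. Per the labels and the study's methods, the authors aligned reads to mm9 with TopHat2 2.0.6 and Bowtie2 2.0.2.0, counted them with HTSeq 0.5.3p9 on Ensembl genes and on a flattened exon annotation, and deposited counts, not normalized. Random priming and amplification can make counts depend on base composition. The authors used DESeq 1.14.0 for their comparisons, which were not used here. The members and lists were chosen with earlier results of these data known, and some added settings after seeing the data. Of the other named genes, those called and otherwise the 5 with the smallest p are named, and of the members the 12 farthest from zero and the highest per length of each role.

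Gene counts were fitted in R 4.3.3 by the robust quasi-likelihood method of edgeR 4.0.16, after filterByExpr and TMM scaling, and SEs were derived from the F statistic. CPM used the TMM factors. P-values were adjusted by Benjamini-Hochberg over all genes tested, with a threshold of 0.05. Exon usage was tested with limma 3.58.1 (voom, diffSplice). Reads in no bin, 20.62% to 20.77% of counts in controls and 20.78% to 23.40% in mutators, were left out. Every mutator thus had a larger share than every control. The part of this difference in the exon results was not tested. Bin positions come from a GENCODE annotation of mm9 flattened in the same way, whose number of bins matched for 48 of the 54 genes, and exon lengths and GC content come from the same annotation. None of the 54 was merged with an overlapping gene. Lists, relations and exon pairs were tested by permutation with scipy 1.17.1 (exact, or 100000 permutations). List levels used log2 CPM with a prior count of 2. Of 7 candidate exon pairs, 4 had 1 bin for each exon. DESeq2 1.42.0, diffSpliceDGE and the other settings were alternatives. The scripts were tested on simulated data. P-values of genes, lists, relations and exon pairs measure the spread between mice, 1 library each. Those of exon bins, and their SEs, use a variance that diffSplice pools over the bins of a gene. Bins of 1 mouse are thereby treated as independent, so these p-values can be too small.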

Additional observations from a re-analysis of the deposited data

Results flagged for a closer look

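In 140 groups of values (the 54 genes, 13 marker lists and the GC slope, each in controls and in mutators, and 4 exon pairs in mutators), 5 had a mouse far from the rest of its group by Dixon's ratio of gap to range, where chance gives about 7 at 1 in 20. Syn2 in mutators was highest in mouse 249, at 558 CPM against 510.3 to 528 CPM in the other 6 (ratio 0.622). Stx1a was also highest in mouse 249, at 184 CPM against 142 to 159 (ratio 0.596). Syn3 was highest in mouse 236, at 22.4 CPM against 18.0 to 19.8 (ratio 0.580), and Syt3 in mouse 207, at 59.0 CPM against 42.6 to 49.6 (ratio 0.576). The astrocyte markers had a mean log2 CPM of 8.33 in mouse 217 against 8.07 to 8.15 in the other mutators (ratio 0.680).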

How the results depend on the processing

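Of the 54 genes, 2 were called in the edgeR fit, 2 with DESeq2 and without a filter, 1 with RLE or upper quartile normalization or a mean count of at least 10, 0 with the 3 WT/WT controls or the GC correction, and 0 to 3 without 1 mouse (3 without control 205, 2 without mutator 249, 0 without any of the other 9). Of the other vesicle genes, 1 was called, 3 with DESeq2, 2 without a filter and 1 to 4 without 1 mouse (4 without control 205, 2 without mutator 249). Member exon bins called were 0, and 0 to 5 without 1 mouse (5 without control 205, 2 without mutator 207). Of all genes 223 were called, 616 with DESeq2, 346 without a filter, 50 with the 3 WT/WT controls, and 50 to 412 without 1 mouse. Of the marker lists 2 were called, 0 with summed CPM, 0 with the 3 WT/WT controls and 0 to 2 without 1 mouse, where 3 controls against 7 mutators allow an adjusted p of 0.108 for a single list at best. The causes were not tested.

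These values changed sign: interneuron and oligodendrocyte markers with summed CPM (0.012 and 0.0089), layer 6b markers with the 3 WT/WT controls (-0.014) and from -0.014 to 0.085 without 1 mouse, hippocampal markers from -0.077 to 0.0044, the exon pair of Syn3 from -0.17 to 0.95 points and of Erc2 from -0.038 to 0.63, r of Synpr with hippocampus (-0.035 with summed CPM, -0.13 to 0.31 without 1 mouse) and r of Sytl4 with endothelium (0.11, and -0.18 to 0.10). None of these had passed the threshold.

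Genes near 5 CPM, such as Sytl4 and Slc17a8, rest on as few as 44 and 96 counts in the smallest control library, which limits the precision of their fold changes. No paired analysis was possible, since the groups held different mice and the labels used here do not assign littermates to each other. Replicate numbers, which the labels do not give, were set in accession order only.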
